A study of Mus musculus with 2 samples.

Results

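The cytosolic ribosomal protein genes were examined in total RNA of MEL cells, a mouse erythroleukemia line in which dimethyl sulfoxide (DMSO) induces hemoglobin. A gene was taken as a member where its row was protein-coding in the GENCODE M21 annotation and its symbol began with Rpl, Rps or Rplp and a digit, or was Rpsa. The kinase genes beginning with Rps6k and the gene Rps19bp1 were left out. This gave 91 members among 69691 rows and among 21461 nuclear protein-coding genes. The members divide into 77 core genes (46 of the 60S subunit, of which 3 encode the stalk, and 31 of the 40S subunit), 9 paralogs and 5 further copies with a protein-coding label.

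Every library came from cells kept in 2% DMSO for 5 days, and fragments of 300 to 350 nt had been selected. The series held 1 condition with 2 libraries, named replicate 1 and replicate 2, which totalled 65109488 and 90856320 estimated counts. The labels call them biological replicates of an immortalized line but cite the same biosample record, so part of the SD given here may be technical. Untreated cells were not analysed here, and all values describe treated cells. All 9 erythroid marker genes reached 1 TPM in both libraries, TPM being a level per transcript length, scaled to a fixed total in each library. Of 13 markers of other blood, stromal and epithelial cells, 2 reached that level, the platelet-lineage genes Pf4 and Itga2b, and 3 had no count in either library. The TPM of the 13 summed to 46.1 in replicate 1 and 44.3 in replicate 2.

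Ribosomal proteins build the small (40S) and large (60S) subunits around ribosomal RNA, and nearly every one of them enters the ribosome as a single copy. The stalk of the large subunit is the exception: Rplp0 anchors it and carries several copies of Rplp1 and Rplp2, which recruit the translation factors with GTPase activity. Mammalian ribosomal protein mRNAs start with a C followed by a run of pyrimidines, the TOP motif, through which mTOR signalling sets their translation. Most of these genes have also left processed pseudogenes, copies of its spliced mRNA inserted elsewhere in the genome, so short reads from the gene can match several places. Red cell precursors need a high output of ribosomes, and in humans loss of 1 allele of several of these genes causes Diamond-Blackfan anemia.

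In both libraries 86 of the 91 members reached 1 TPM, whereas 37.2% of all nuclear protein-coding genes reached that level. The other 5 members had no count in either library, which allows up to 3 counts, or 0.0461 CPM (counts scaled to the library total) in replicate 1 and 0.0330 CPM in replicate 2. The members at 0 were Rpl3l, Rpl10l, Rpl39l, Rpl9-ps1 and Rpl36-ps4. Of all counts, 5.57% in replicate 1 (5.57 to 5.58, 95% Wilson interval) and 6.19% in replicate 2 (6.18 to 6.19) were those of the members, a mean of 5.88% ± 0.433 (SD, n = 2). Their part of the nuclear protein-coding TPM was 22.8% and 22.1%. The core genes carried 98.8% of the members' counts in replicate 1 and 98.9% in replicate 2.

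The core genes were among the most abundant messages of the treated cells. Ranked by TPM, 58 of the 100 highest nuclear protein-coding genes were core genes in replicate 1 and 57 in replicate 2. Their median was 303 TPM in replicate 1 and 287 TPM in replicate 2, whereas the median of nuclear protein-coding genes above 0 was 2.17 TPM and 1.93 TPM. The level of a gene differed little between libraries compared with the differences between genes: the rank correlation of the libraries over the 77 core genes was 0.976, a description across genes that share their annotation and lengths.

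The highest core gene was Rplp1, which encodes an acidic protein of the stalk, with 1799 TPM in replicate 1 and 1545 TPM in replicate 2. It lies at chr9:61913284-61914542 on GRCm38, on the minus strand, and ranked 3 and 6 among nuclear protein-coding genes. Rpl41, which encodes the smallest ribosomal protein, followed with 1066 TPM and 901 TPM. Rpl36a, a 60S gene with a paralog described below, had 1025 TPM in replicate 1 and 907 TPM in replicate 2. The highest 40S gene by mean was Rps12, with 791 TPM and 753 TPM. Each of these 4 genes was above the 75th percentile of the core genes in both libraries, which was 499.9 TPM in replicate 1 and 459 TPM in replicate 2.

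The lowest core gene was Rpl29, a 60S gene at chr9:106429454-106431568, with 4.53 TPM in replicate 1 and 4.68 TPM in replicate 2. Its row held 633 and 1073 estimated counts. The next lowest were Rpl21, with 76.5 TPM and 61.6 TPM, and Rpl5, whose protein joins Rpl11 and 5S ribosomal RNA before it enters the 60S subunit, with 82.3 TPM and 79.9 TPM. Rpsa, a 40S gene whose product is also known as the laminin receptor, had 104 TPM in replicate 1 and 114 TPM in replicate 2. Rpl27a, the fifth from the bottom by mean, had 144 TPM and 128 TPM, and Rpl15, next above it, had 142 TPM and 131 TPM. Each of the 4 lowest genes had over 50% of its summed TPM in pseudogene copies, which are described further on. For Rpl27a the share in copies was 32.2% in replicate 1 and 35.0% in replicate 2, and for Rpl15 it was 55.4% and 57.6%.

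**Figure D1:**
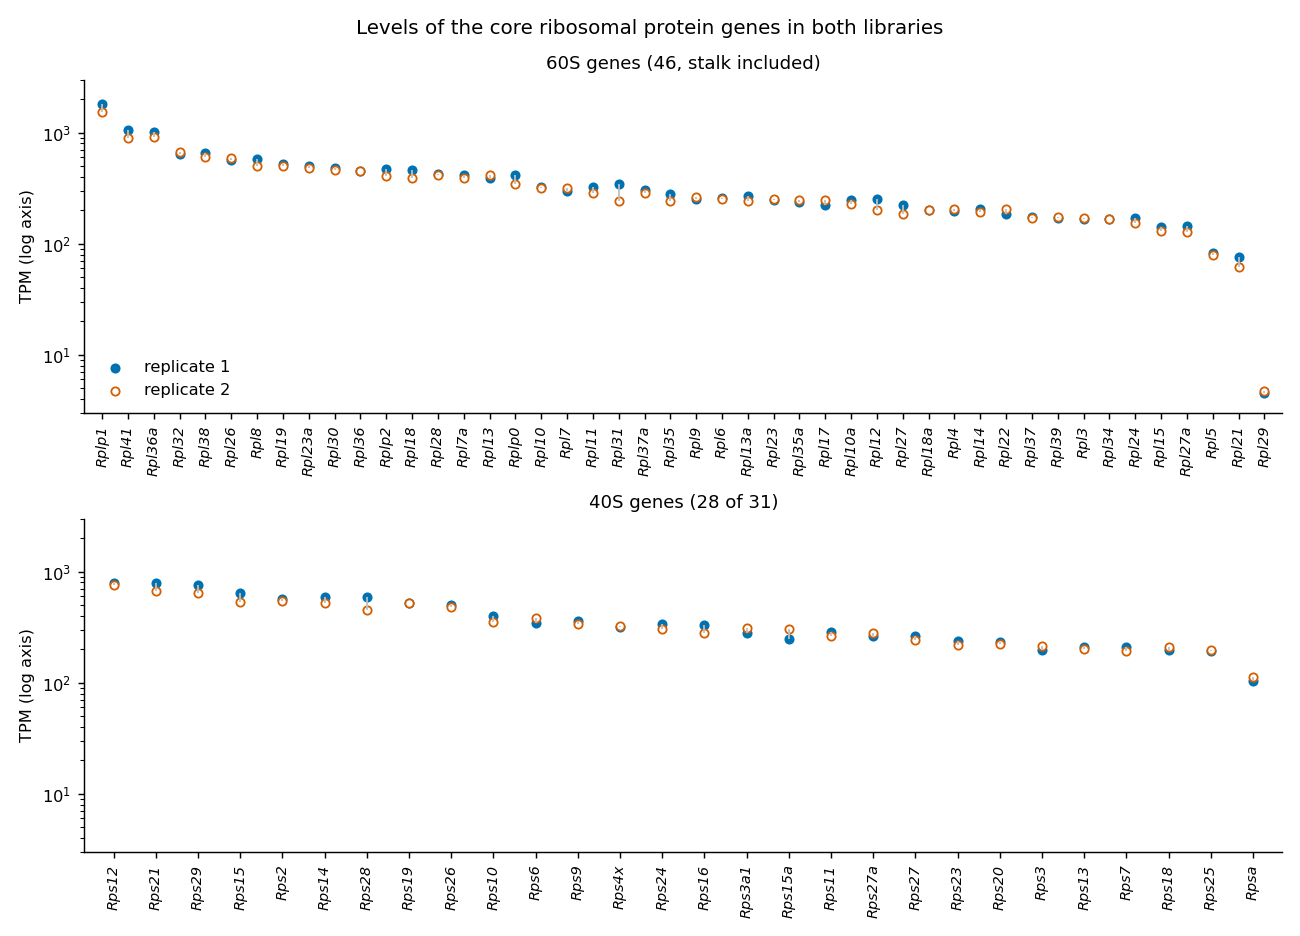
TPM (log axis) of the 46 core 60S genes and 28 of the 31 core 40S genes in replicate 1 (filled) and replicate 2 (open), ordered by mean TPM, with a line joining the libraries. Rplp1 stands highest at 1799 and 1545 TPM, Rpl29 lies far below the rest at 4.53 and 4.68 TPM, and the libraries lie close together for most genes.

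Although their proteins, those of the stalk aside, are needed in equal numbers, the core messages were spread over a wide range of levels per length. The 3 stalk genes are included in the values that follow. The 90th percentile exceeded the 10th by 3.82-fold in replicate 1 and 3.67-fold in replicate 2, a mean of 3.74 ± 0.102 (SD, n = 2). Among nuclear protein-coding genes above 0 the same ratio was 700.4 and 597.5. In each library 61 of the 77 core genes lay within 2-fold of the core median.

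The 60S messages were somewhat lower than the 40S messages. The median of the 46 60S genes was 275 TPM in replicate 1 and 253 TPM in replicate 2, and that of the 31 40S genes was 335 TPM and 326 TPM. The ratio of 60S to 40S was 0.821 in replicate 1 and 0.776 in replicate 2, a mean of 0.799 ± 0.0316 (SD, n = 2). With the pseudogene copies described below added, it was 0.845 and 0.776. The 2 subunits overlapped broadly: 60S genes ran from 4.53 TPM to 1799 TPM in replicate 1, and 40S genes from 104 TPM to 795 TPM. Their rows also differed in length, with a median of 746 nt for 60S genes and 634 nt for 40S genes in replicate 1.

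Level went with transcript length across the core genes. The genes under 600 nt, 30 in replicate 1 and 31 in replicate 2, had medians of 511 TPM and 459 TPM in replicates 1 and 2. The longer genes, 47 and 46 of them, had medians of 252 TPM and 251 TPM. Spearman's rho between TPM and length was -0.58 in replicate 1 and -0.57 in replicate 2, and -0.44 and -0.42 when counts were divided by annotated length in place of the authors' effective length. These correlations describe 77 genes of the same libraries. Effective length is far below annotated length for short messages (94.4 nt for the 255 nt row of Rps27 in replicate 2), which raises their TPM, and the part of this correction in the relation was not tested.

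The 3 stalk genes stood in unequal amounts. Rplp1 had 1799 TPM and 1545 TPM in replicates 1 and 2, whereas Rplp2, at chr7:141447370-141451585, had 473 TPM and 405 TPM. Rplp0, at chr5:115559467-115563727, had 413 TPM and 348 TPM. Rplp1 thus exceeded Rplp0 by 4.35-fold in replicate 1 and 4.44-fold in replicate 2 (mean 4.40 ± 0.0620, SD, n = 2), and Rplp2 exceeded it by 1.14-fold and 1.16-fold (mean 1.15 ± 0.0141). All 3 genes were higher in replicate 1 by TPM, and the ratios differed little between the libraries.

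These ratios rest on where reads of Rplp0 were assigned. A processed pseudogene row, Gm8730 at chr8:102864845-102865798, held 522 TPM in replicate 1 and 426 TPM in replicate 2, by TPM more than the Rplp0 row itself in both libraries. In estimated counts, which are not divided by length, Gm8730 was below Rplp0. It had 115852 against 118990 in replicate 1 and 155942 against 165652 in replicate 2. Over the 951 bases of the Rplp0 coding sequence Gm8730 and Rplp0 differ at 12 positions. With all 3 copy rows added to Rplp0, its level was 1025 TPM and 860 TPM. On that scale Rplp1, with its own copies, exceeded Rplp0 by 1.78-fold and 1.82-fold, and the ratio of Rplp2 to Rplp0 was 0.462 and 0.471, so that Rplp2 changed from above Rplp0 to below it.

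The 60-base windows with the most differences show how little separates such a copy from its gene. Below, bases 388 to 447 of the coding sequence of Rplp0, bases 160 to 219 of Rpsa, bases 312 to 371 of Rps18 and bases 13 to 72 of Rpl29 are set beside their most abundant copies, counted from the A of the start codon in the GENCODE M21 transcripts. Capitals mark the bases at which the copy and the gene differ.
Gm8730: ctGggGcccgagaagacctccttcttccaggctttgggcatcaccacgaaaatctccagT
Rplp0: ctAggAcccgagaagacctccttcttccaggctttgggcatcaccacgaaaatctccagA
Rpsa-ps10: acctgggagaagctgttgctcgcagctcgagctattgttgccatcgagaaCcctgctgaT
Rpsa: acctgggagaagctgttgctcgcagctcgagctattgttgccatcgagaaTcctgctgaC
Gm10260: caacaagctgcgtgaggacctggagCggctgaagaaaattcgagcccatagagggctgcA
Rps18: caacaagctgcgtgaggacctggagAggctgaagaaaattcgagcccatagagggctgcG
Gm8210: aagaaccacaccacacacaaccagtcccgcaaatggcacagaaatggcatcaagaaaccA
Rpl29: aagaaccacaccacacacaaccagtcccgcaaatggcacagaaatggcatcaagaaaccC

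Copies of this kind were common. A copy row was defined as any other row whose transcript matched a core coding sequence at 95% identity or more over at least 80% of it, which gave 424 rows, of which 401 were annotated as processed pseudogenes, 13 as transcribed processed pseudogenes and 10 as protein-coding. Counts were assigned to 330 of them in replicate 1 and 346 in replicate 2. Together they held 14.8% of the TPM of core genes plus copies in replicate 1 and 15.7% in replicate 2 (mean 15.3% ± 0.669, SD, n = 2). A core gene had a median of 4 copy rows, and Rpl21 had the most with 39. For 8 core genes no row met the definition, among them Rpl8, Rpl23, Rplp2 and Rps3.

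The 4 lowest core genes were among those with the largest shares in copy rows, but Rplp0, above the median of the core genes, also had most of its sum there. For 8 core genes in each library, more than 50% of the summed TPM lay in copy rows. The share was 97.5% in replicate 1 and 97.3% in replicate 2 for Rpl29, and 80.1% and 83.9% for Rpl21. It was 72.3% and 72.6% for Rpsa, 72.8% and 70.4% for Rps18, and 66.6% and 70.0% for Rpl5. For Rplp0, Rpl15 and Rpl27 it lay between 50.3% and 59.7% over the libraries. At the other end, 33 core genes in replicate 1 and 31 in replicate 2 had less than 5% in copies.

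Rps18, a 40S gene of the subunit head at chr17:33951999-33956001, had 195 TPM in replicate 1 and 209 TPM in replicate 2. Its copy Gm10260, at chr13:97760072-97760632 and annotated as protein-coding, had 521 TPM and 495 TPM and differed from Rps18 at 4 of 456 aligned bases. For Rpsa the copy Rpsa-ps10, at chr3:150072658-150073542, had 270 TPM and 301 TPM and differed at 6 of 885 bases. In both cases the copy row exceeded the gene row in both libraries. The row of Rpsa is 1861 nt long in the authors' tables, the longest of the core genes, which lowers its TPM for a given count.

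The authors' own measure of certainty differed widely among the copies. The posterior standard deviation, the authors' estimate of how far a count could shift with the assignment of shared reads, was 0.0538% of the count for Gm8730 in replicate 1 and 0.0841% for Rpsa-ps10. Rpl29 had the copies Gm8210, at chr1:43189156-43189638, and Gm13841, at chr5:115801677-115802159, whose transcripts are identical. Each was given 89.2 TPM in replicate 1 and 82.8 TPM in replicate 2, and their posterior standard deviations were 58.6% and 68.6% of the count in replicate 1. The Rpl21 copies Gm10240 and Gm13370, whose transcripts are also identical, had 146 TPM each in replicate 1, but 161 TPM and 147 TPM in replicate 2. Only the sum over such rows can be read. Of 111 copy rows with at least 100 counts in a library, 26 had a posterior standard deviation over 5% of the count.

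**Figure D2:**
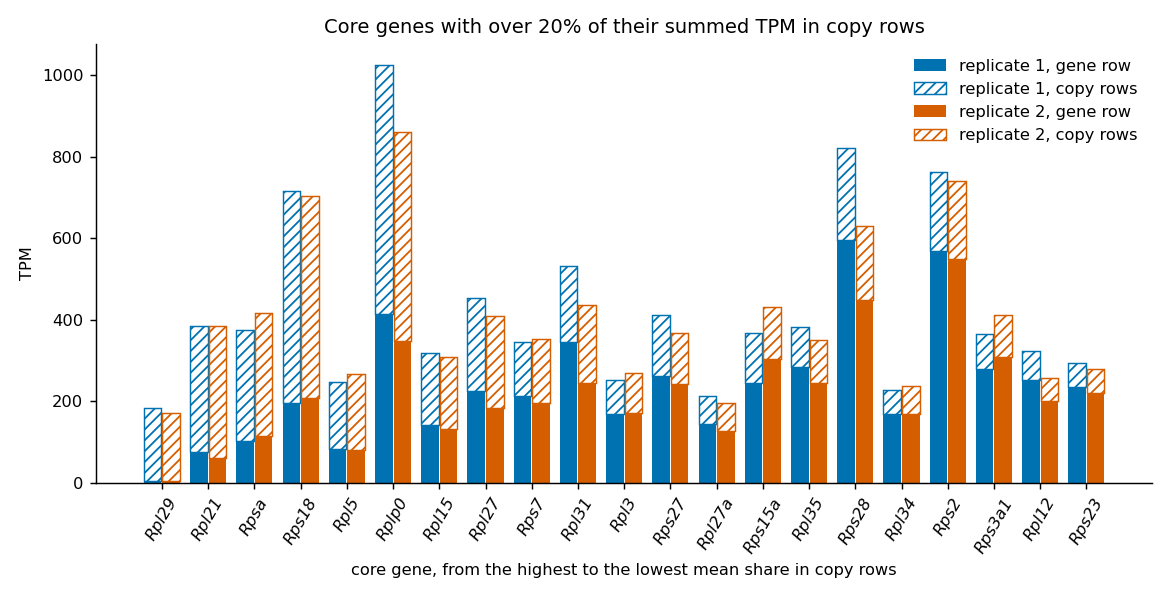
TPM of the gene row (solid) and of its copy rows (hatched, stacked above) in replicate 1 (blue) and replicate 2 (orange), for the 21 core genes with over 20% of their summed TPM in copy rows on average, ordered by that share. Rpl29 is almost wholly in copy rows, and for Rplp0 and Rps18 the hatched part exceeds the solid part in both libraries.

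With copies added, the 10th and the 90th percentiles of the core genes were both higher. The 10th percentile was 213 TPM with copies and 169.5 TPM without them in replicate 1, and 213 TPM and 169 TPM in replicate 2. The 90th percentile was 798 TPM with copies and 647 TPM without them in replicate 1, and 707 TPM and 622 TPM in replicate 2. The lowest sum was 178 TPM in replicate 1 (Rpl39) and 170.1 TPM in replicate 2 (Rpl24), where the lowest single row had been 4.53 TPM and 4.68 TPM. Rpl29 reached 184 TPM and 172 TPM, and Rpl21 383 TPM in both. The highest gene exceeded the lowest by 10.2-fold and 9.18-fold with copies, and by 397-fold and 330.2-fold without them. The SD of log2 TPM over the core genes was 0.73 in replicate 1 and 0.68 in replicate 2 with copies, and 1.10 and 1.07 without. The ratio of the 90th to the 10th percentile moved less, to 3.75 and 3.32. Whether transcription of the pseudogenes or reads of the genes themselves supplied these counts was not tested.

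Of the 9 listed paralogs, 6 had counts, and the TPM of each was below that of its main gene in both libraries. In estimated counts, which are not divided by length, Rps27rt was above Rps27, with 7834 against 6376 in replicate 1 and 10395 against 9159 in replicate 2. The eS27 family had the largest paralog share. Rps27rt, a retrogene at chr9:114982366-114982739 whose coding sequence is identical to that of Rps27 over all 252 bases, had 150.4 TPM in replicate 1 and 124 TPM in replicate 2. Rps27 itself, at chr3:90212522-90213651, had 262 TPM and 242 TPM. The share of Rps27rt in this pair was 36.5% and 33.8% (mean 35.2% ± 1.88, SD, n = 2). The Rps27 row is 255 nt long, close to its coding sequence, and with counts divided by annotated length the mean share was 44.9%. Reads that lie wholly within the shared 252 bases cannot be told apart by sequence. The share of Rps27rt therefore rests on how such reads were divided. The authors' posterior standard deviation for Rps27rt was 0.152% of its count in replicate 1 and 0.123% in replicate 2.

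Rps27l, at chr9:66946086-66949516, is a paralog whose transcription p53 raises in human cells. It had 57.9 TPM in replicate 1 and 45.0 TPM in replicate 2, which was 18.1% and 15.7% of its pair with Rps27. With counts divided by annotated length the mean share of Rps27l was 26.7%, against 16.9% by TPM. Its coding sequence has the same length and differs from that of Rps27 at 60 of 252 bases, so that reads of the 2 can be told apart. Its posterior standard deviation was 0 in both libraries. Capitals mark the bases at which the coding sequences differ.
Rps27l: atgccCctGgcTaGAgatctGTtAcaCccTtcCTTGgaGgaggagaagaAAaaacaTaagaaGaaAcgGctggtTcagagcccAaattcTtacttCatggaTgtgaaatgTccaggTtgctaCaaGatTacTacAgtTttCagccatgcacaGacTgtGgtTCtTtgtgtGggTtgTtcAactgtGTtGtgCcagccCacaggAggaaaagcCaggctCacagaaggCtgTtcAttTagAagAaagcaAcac
Rps27: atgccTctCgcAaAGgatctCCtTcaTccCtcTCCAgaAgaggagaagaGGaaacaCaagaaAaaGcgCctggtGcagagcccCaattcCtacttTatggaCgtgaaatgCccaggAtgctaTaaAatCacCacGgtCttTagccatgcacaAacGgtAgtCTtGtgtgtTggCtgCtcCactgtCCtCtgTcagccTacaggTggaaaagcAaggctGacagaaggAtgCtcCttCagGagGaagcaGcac

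Rpl36al, at chr12:69182731-69184083, had 129 TPM in replicate 1 and 90.2 TPM in replicate 2. Its partner Rpl36a, on chromosome X at chrX:134585654-134588062, had 1025 TPM and 907 TPM. The paralog's share was 11.2% and 9.04% (mean 10.1% ± 1.52, SD, n = 2). The coding sequences are 318 bases each and differ at 39.

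The remaining paralogs with counts were far below their partners. Rpl22l1, at chr3:28805436-28807424, had 8.85 TPM in replicate 1 and 10.5 TPM in replicate 2, against 184 TPM and 205 TPM for Rpl22, whose product binds RNA outside the ribosome as well. Its share of the pair was 4.59% and 4.89%. Rpl7l1, at chr17:46773907-46782672, had 14.0 TPM and 10.9 TPM, and Rpl7 had 297 TPM and 318 TPM. The share of Rpl7l1 was 4.50% and 3.32%, although its coding sequence matches that of Rpl7 at only 53.0% of aligned positions. Rpl9-ps6, a copy with a protein-coding label at chr19:32465865-32466578 that differs from Rpl9 at 1 of 576 coding bases, had 17.0 TPM and 17.2 TPM, against 252 TPM and 263 TPM for Rpl9.

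The paralogs known mainly from testis and muscle were not detected at this depth. Rpl3l, which in mice is expressed in heart and skeletal muscle, Rpl10l, a gene of the testis, and Rpl39l, also of the testis, each had 0 counts in both libraries. Their partners Rpl3, Rpl10 and Rpl39 had 168, 323 and 170.0 TPM in replicate 1 and 171, 318 and 174 TPM in replicate 2. Their coding sequences match those of the partners at 73.2%, 84.7% and 85.0% of aligned positions. Of the further copies with a protein-coding label, Rps12-ps3 had 56.8 TPM and 63.5 TPM, Rpl10-ps3 28.1 TPM and 30.7 TPM, and Rpl36a-ps1 11.5 TPM and 12.5 TPM. Among the members with at least 100 counts, Rpl29, Rpl36a-ps1, Rpl10-ps3, Rpl9-ps6 and Rps12-ps3 had the largest posterior standard deviations relative to their counts, from 2.31% for Rpl29 to 0.860% for Rps12-ps3 in replicate 1.

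**Figure D3:**
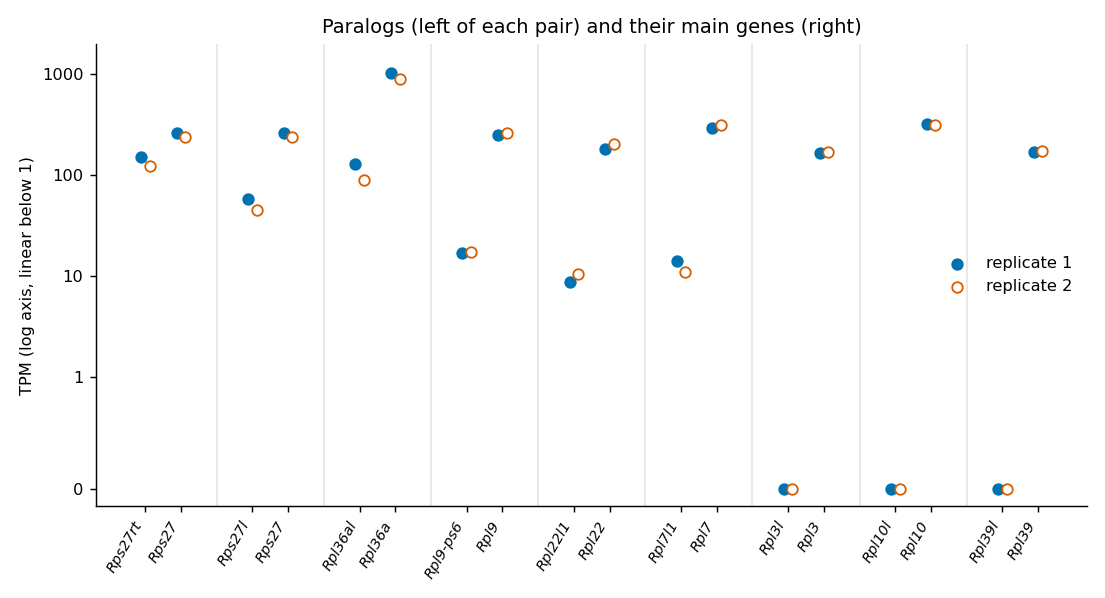
TPM of 9 paralogs (left of each pair) and their main genes (right), in replicate 1 (filled) and replicate 2 (open), on a log axis that is linear below 1. Rps27rt lies closest to its partner, and Rpl3l, Rpl10l and Rpl39l lie at 0 beside partners at 168 to 323 TPM in replicate 1.

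The genes mutated in human Diamond-Blackfan anemia lay within the range of the other core genes. Over the 10 listed genes the lowest and median TPM were 82.3 and 331 in replicate 1, and 79.9 and 296 in replicate 2. Rpl5 was the lowest in both libraries. Rps19, the gene most often mutated in the human disease, had 522 TPM in replicate 1 and 522 TPM in replicate 2. Rps26, Rps10, Rps24 and Rps7 of the 40S subunit had 500.0, 403, 335 and 212 TPM in replicate 1, and 479, 356, 306 and 194 TPM in replicate 2. Rpl11, the partner of Rpl5, had 327 TPM and 287 TPM, and Rpl35a had 239 TPM and 246 TPM. With copies added, Rpl5 had 246 TPM and 267 TPM and Rpl15 had 318 TPM and 309 TPM.

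The ribosomal proteins whose genes carry other names were at similar levels. Rack1, a scaffold protein on the 40S head, had 651 TPM in replicate 1 and 591 TPM in replicate 2. Fau, which encodes a ubiquitin-like fusion of a 40S protein, had 300.4 TPM and 267 TPM. Both lay within the range of the core genes.

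The start of the transcript was compared with the TOP motif. RefSeq promoters on GRCm38.p6 were matched for 57 of the 77 core genes, with 250 bases before the annotated start and 50 after it. A start base C followed by 4 bases each C or T, read on the gene's strand, was present for 13 of the 57 core genes (22.8%), and for 813 of all 27025 genes in the table (3.01%). The letters CTTCCGG, bound by ETS family factors, occurred on either strand in the window of 24 of the 57 (42.1%), and of 9.93% of all genes. The letters TATAAA on either strand occurred for 6 of the 57 (10.5%), and for 15.7% of all genes. The searches were independent and matches may overlap. A match is a description of letters at an annotated start, not of a factor or of translation.

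The starts of 6 such genes are shown with 20 bases on each side of the boundary, and capitals mark the pyrimidine run from the annotated start. On GRCm38.p6 they lie at chr14:18270967-18271006 (minus strand), chr2:39005112-39005151 (minus), chr17:27635225-27635264 (minus), chr4:86857348-86857387 (minus), chr7:141447631-141447670 (plus) and chr2:180257359-180257398 (plus).
Rpl15: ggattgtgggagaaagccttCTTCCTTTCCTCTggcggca
Rpl35: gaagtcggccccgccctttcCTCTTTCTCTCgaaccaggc
Rps10: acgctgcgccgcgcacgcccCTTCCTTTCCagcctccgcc
Rps6: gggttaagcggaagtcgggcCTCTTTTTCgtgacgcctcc
Rplp2: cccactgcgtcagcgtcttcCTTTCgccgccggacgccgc
Rps21: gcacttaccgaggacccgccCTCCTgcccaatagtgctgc

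The levels did not order by a match at the annotated start. The 13 genes with a match had medians of 283 TPM and 305 TPM in replicates 1 and 2. The other 44 genes with a RefSeq promoter had 291 TPM and 271 TPM. The group with a match was lower in replicate 1 and higher in replicate 2. Its members ran from Rpl15, among the lowest core genes, to Rps21, with 795 TPM and 666 TPM. A gene without a match at the annotated base may still have a TOP start, so the comparison cannot show whether level goes with the motif.

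Most of the other mRNAs listed as having a TOP start code for translation factors, whereas Npm1, Nap1l1, Hnrnpa1 and Tpt1 on the same list do not. All 14 reached 1 TPM in both libraries, and their medians were 109 TPM and 93.2 TPM in replicates 1 and 2. Eef1a1, which delivers aminoacyl-tRNA to the ribosome, had 1445 TPM and 1606 TPM, and Eef2, the translocation factor, had 321 TPM and 354 TPM. The 8 genes for dedicated chaperones of ribosomal proteins were far lower, with a median of 7.68 TPM and 4.45 TPM. Their partner proteins are known from human cells and yeast. Bccip, a chaperone of Rpl23, had 11.4 TPM in replicate 1 and 6.96 TPM in replicate 2, Tsr2, a chaperone of Rps26, 7.39 TPM and 4.64 TPM, and Grwd1, a chaperone of Rpl3, 9.80 TPM and 4.26 TPM.

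Most core genes were read mainly as their protein-coding transcript. The annotated type of the leading transcript, the one with the largest share of the gene's TPM, was protein-coding in both libraries for 72 of 77 core genes. The same transcript led in both libraries for 73. The median share of protein-coding transcripts was 98.9% in replicate 1 and 99.3% in replicate 2, and 20 core genes had a single transcript in the tables. For 46 core genes the leading transcript held 90% or more in both libraries.

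The 5 exceptions included Rps20, Rpl27, Rpl30 and Rpl35. In Rps20 the 582 nt model Rps20-201, annotated as a retained intron, held 82.2% and 83.0%, whereas the coding model Rps20-203 is 3706 nt long and held 12.5% and 14.0%. Rpl30-205, a 388 nt processed transcript, held 63.1% and 59.1% of Rpl30, and Rpl27-204, a 536 nt processed transcript, 41.7% and 46.8% of Rpl27. Rpl35 was divided among 3 models with 32.3% to 35.3% each in replicate 1. Short non-coding models share exons with the coding ones, and a share rests on how reads of common exons were divided.

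Some coding transcripts were also divided. Rps24 was split between the 468 nt model Rps24-201 (51.0% in replicate 1, 47.1% in replicate 2) and the 837 nt model Rps24-202 (49.0% and 52.9%). Rpl31 was split among Rpl31-202 (39.7% and 24.2%), Rpl31-201 (29.4% and 42.8%) and Rpl31-205 (27.4% and 30.6%). In Rpl15, Rpl15-202 led with 37.5% and 45.4%. The leading transcript changed between libraries in 4 genes, among them Rpl31, Rps24 and Rpl35.

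Retained-intron models made up 4.78% of the core TPM in replicate 1, and 4.88% in replicate 2. Among the 42 core genes with such a model, the share was higher in replicate 1 for 37 and lower for 5. Besides Rps20, such shares were 38.8% and 29.6% in Rpl5, 37.5% and 31.1% in Rpl12, and 23.9% and 22.0% in Rps16. In Rps19 the share was higher in replicate 2, with 12.72% in replicate 1 and 19.65% in replicate 2.

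**Figure D4:**
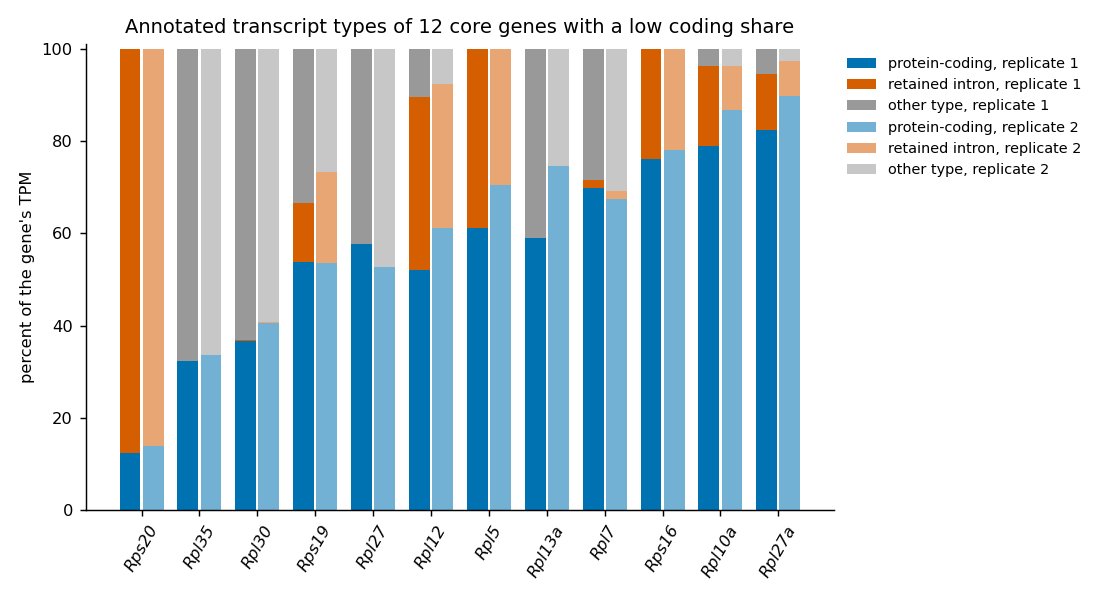
Percent of a gene's TPM in transcripts annotated as protein-coding (blue), retained intron (orange) or another type (grey), for 12 core genes, in replicate 1 (dark, left) and replicate 2 (light, right), ordered by mean coding share. Rps20 is mostly retained-intron models in both libraries, whereas Rpl35, Rpl30 and Rpl27 are divided with other non-coding models.

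Core genes also host small nucleolar RNAs (snoRNAs), which guide the chemical modification of ribosomal RNA and are released from introns. On the same strand within the members lay 58 snoRNA genes in 30 hosts, of which 19 had 10 or more counts in both libraries and 36 had none in either. An annotated exon of the host overlapped 30 of the 58. Their TPM is not given, because effective length is far below annotated length for short rows (94.4 nt for the 255 nt row of Rps27 in replicate 2). The row with the most counts was Gm26448, a 203 nt gene in an intron of Rpsa at chr9:120129351-120129553, with 53434 counts in replicate 1 and 100099 in replicate 2. That exceeded the counts of the Rpsa row, which were 42623 and 77438. The copy row Rpsa-ps10, which is not part of the Rpsa row, held a further 57094 and 104984 counts.

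Snord15b, a box C/D snoRNA in Rps3, had 20293 counts in replicate 1 and 13585 in replicate 2, although replicate 1 is the shallower library. This was 312 CPM and 149.5 CPM, whereas its host Rps3 had 1024 CPM and 1213 CPM. Snord15a, in another intron of Rps3, had 6656 and 5073 counts. Snora52 in Rplp2 had 3279 and 3333 counts, and Snora70 in Rpl10 had 1900 and 2302. By CPM, Snord15b was thus higher in replicate 1 while Rps3 was lower there. Snord15b, Snora52 and Snora70 overlap an annotated exon of their host, so reads of the host can fall on them.

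Between the libraries the members moved little. Ratios of TMM-scaled counts of replicate 1 over replicate 2 had a median of -0.19 on the log2 scale over the 86 members with 10 or more counts, and of -0.017 over all 12094 nuclear protein-coding genes tested. No member was past 2-fold in either direction, whereas 6.01% of all genes tested were, 3.18% higher and 2.84% lower in replicate 1. Past 1.5-fold there were 0 of 86 members, 24 of 90 other genes at 100 TPM or more in both libraries, and 17.4% of all genes tested. With 1 library on each side there is no test.

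By scaled counts most members were lower in replicate 1. Of the 86, 10 were higher in replicate 1 and 76 lower, and 47.9% of all genes tested were higher. The median was -0.19 over the 46 60S genes and -0.18 over the 31 40S genes, with overlapping ranges. The other genes at 100 TPM or more had a median of -0.39. This direction depends on the scale: by TPM with 1 added, the median of the members was 0.065, and 57 of 86 members were higher in replicate 1, as were 76.0% of all genes. Relative to the median of all genes, the members were at -0.17 by counts and -0.068 by TPM.

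The members with the largest ratios were few. Rpl36al was highest at 0.26 (95% interval 0.23 to 0.30), with 11759 counts in replicate 1 and 13375 in replicate 2. Rps28, a small 40S protein gene, followed at 0.17 (0.15 to 0.19), and Rps27l at 0.11 (0.06 to 0.17). The lowest were Rps3a1, at -0.42 (-0.43 to -0.40), Rps12-ps3, at -0.42 (-0.47 to -0.36), and Rpl17, at -0.41 (-0.43 to -0.39). By scaled counts the paralogs Rpl36al, Rps27l and Rpl7l1 were higher in replicate 1 while Rpl36a, Rps27 and Rpl7 were lower, though by TPM Rpl36a and Rps27 were higher there too, whereas Rpl22l1 and Rpl22 were both at -0.37. The intervals are exact and cover counting error only.

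Other genes moved between the libraries as well. By scaled counts all 9 erythroid markers were lower in replicate 1, 5 of them past 2-fold, with a median of -1.15. The alpha globin gene Hba-a1 had 2038 TPM in replicate 1 and 3934 TPM in replicate 2, and Alas2, which makes the first enzyme of heme synthesis, had 63.3 TPM and 176 TPM. Of the chaperone genes, 6 of 8 were higher in replicate 1, with a median of 0.38. Of the other TOP mRNAs 12 of 14 were lower in replicate 1, with a median of -0.18, as were all 10 Diamond-Blackfan genes. By TPM with 1 added the medians were -0.95 for the erythroid markers and 0.59 for the chaperones. Those of the TOP mRNAs and the Diamond-Blackfan genes changed sign, to 0.093 and 0.088. By TPM 2 of the 9 erythroid markers, Klf1 and Epor, were higher in replicate 1. The part of these differences in the ratios of the members was not tested.

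**Figure D5:**
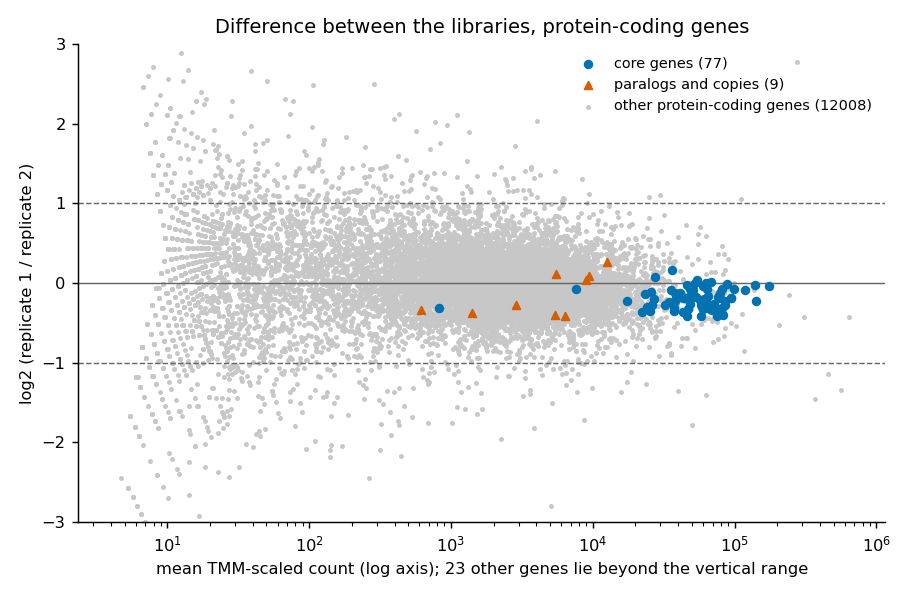
Log2 ratio of replicate 1 over replicate 2 (TMM-scaled counts with 0.5 added) against the mean scaled count (log axis) for 77 core genes (blue), 9 paralogs and copies (orange) and 12008 other protein-coding genes (grey), with dashed lines at 2-fold. Most core genes form a narrow band just below 0 at high counts, a side that turns by TPM, where the median of the members was 0.065, and none of the coloured points passes the dashed lines.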

How the data were processed

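Total RNA of MEL cells in 2% DMSO for 5 days was measured in 2 libraries of 1 condition. The deposited readme names mm10 and GENCODE M4 as the authors' genome and annotation; their aligner and quantification program have no name in the sources used here. The authors' gene tables give, per the file headers, estimated counts, TPM, FPKM and posterior means and standard deviations, and the transcript tables give the percent of a gene's TPM per transcript. TPM sums over all rows, short RNAs included, so it depends on them: nuclear protein-coding genes held 13.2% of TPM in replicate 1 and 12.7% in replicate 2. FPKM as deposited by the authors served only as an alternative.

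Names, types and 1-based coordinates came from GENCODE M21 on GRCm38, where 42462 of 43346 Ensembl rows matched. Over the members, the libraries' counts differed by a chi-square of 209 per degree of freedom. Log2 ratios used rounded estimated counts with TMM scaling (edgeR 4.0.16, R 4.3.3; DESeq2 1.42.0 as an alternative), 0.5 added and a minimum of 10 counts, and were tested on simulated data. Copies were found with blastn 2.17.0+, leaving out rows that overlap the gene itself and hits covering under 30% of the other transcript. Intervals and floors cover counting error only: without molecular identifiers, reads may repeat a molecule.

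Members, lists and tests were chosen with earlier results of these data known. Named are the highest and lowest core genes, the stalk, all paralogs and expressed copies, the Diamond-Blackfan list, the largest ratios and posterior deviations, genes with divided or non-coding leading transcripts, up to 5 genes per further list and 5 snoRNA genes. The copy rows, the promoter motifs and the genes named with them, Rps16 and Rpl12, and the retained-intron share of Rps19 were chosen after values were seen. Values of a few members are not reported here singly, though they count in every total. Alternatives were other thresholds, units, scalings and lengths, and each library left out.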

Additional observations from a re-analysis of the deposited data

How the results depend on the processing

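The values below are means of the libraries. The share of counts held by the members was 5.88%, and it was 8.83% of nuclear protein-coding counts, 2.91% of all TPM, 22.4% of nuclear protein-coding TPM and 6.82% with copy rows added, and 5.57% to 6.19% with 1 library left out. The ratio of the 90th to the 10th percentile of core TPM was 3.74, and it was 3.61 by counts per annotated length, 3.11 over genes of 600 nt or more, 3.51 with named pseudogene rows added, 3.54 with copy rows added and 3.67 to 3.82 with 1 library left out. The median of 60S over 40S genes was 0.799, and it was 0.871 over genes of 600 nt or more and 0.776 to 0.821 with 1 library left out. By counts per annotated length, Rplp1 over Rplp0 was 3.39 and Rplp2 over Rplp0 was 0.905, and with copy rows added they were 1.80 and 0.466, so for Rplp2 both place it below Rplp0. With 1 library left out they were 4.35 to 4.44 and 1.14 to 1.16. The median log2 ratio of replicate 1 to replicate 2 was -0.19 with DESeq2 size factors, -0.16 with total counts, -0.18 with no minimum count and -0.20 for core genes with copies, and by TPM with 1 added it was 0.065, the opposite sign; the cause was not tested. No alternative listed gave a member past 2-fold, and 84 to 86 members reached the threshold of expression under every alternative. The summed share of the paralogs in their pairs was 11.3%, and 10.3% to 12.3% with 1 library left out.

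No paired analysis was possible because the series holds 1 condition. At 2 libraries the SDs rest on 1 difference. The copy definition was chosen after the data were seen. With copies limited to 99% identity the share of TPM in copies was 12.6%, and without the protein-coding ones 13.0%, in place of 15.3%. Annotated lengths come from the authors' older release, and transcripts that differ from the annotated model would shift TPM. Whether strand was used in counting is not stated in the labels or headers.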
